A study of Mus musculus with 2 samples.

Results

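Genes through which p53 acts were examined in mouse embryonic fibroblasts (MEFs) that carry or lack Bmi1, which belongs to Polycomb repressive complex 1 (PRC1). The 10 genes were taken from a list of well-known p53 effectors that leaves out Cdkn1a and Mdm2, and they are Pmaip1, Bbc3, Perp, Gadd45a, Ccng1, Sesn1, Sesn2, Trp53inp1, Zmat3 and Phlda3. These genes and the lists set beside them were chosen with earlier results of these data known, so shares against all genes are descriptive only. Every probe set annotated to 1 of these genes and to no other was included, which gave 17 probe sets for 10 of the 18194 genes represented on the array. RNA had been collected from 1 culture of Bmi1 wild-type MEFs and 1 culture of Bmi1 null MEFs. The lines came from littermate embryos, carry the labels C57BL/6 and male, and had both been immortalised with a TBX2 expression construct, so the controls overexpress TBX2 as well. Neither culture had received a treatment. Each group was 1 line measured on 1 array, so there was no replicate and no test, and an effect of genotype cannot be told apart from one of the line, its culture or its array.

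p53 is a transcription factor that is stabilised by DNA damage and by oncogenic signals and that binds paired half-sites in the DNA of its target genes. Mdm2 marks p53 for degradation and is itself a p53 target, while p19Arf, a product of the Cdkn2a locus, holds Mdm2 in check. Bmi1 and TBX2 are both known as repressors of that locus in fibroblasts. The targets of p53 carry out different tasks, among them apoptosis, growth arrest, repair, control of metabolism under stress and feedback on p53 itself, and many of them also answer to other regulators.

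The quantity given for each probe set is the deposited MAS5 signal, in arbitrary units on a linear scale. Signals below a floor of 100 were raised to that floor before ratios were taken. A probe set above the floor on at least 1 array was called measured. Ratios compare the 2 arrays at the same probe set. Signals of different probe sets are brought together only to pick the brightest of a gene and to sum over marker lists. Such sums are weighted toward bright probe sets. Log2 ratios are null over wild-type. Their precision is described by the SD of log2 ratios between probe sets of the same gene over all genes, and it covers probe set error alone. It came to 0.38 where the brighter signal lay from 100 to 500 (2985 pairs), 0.29 from 500 to 2000 (2237 pairs) and 0.20 at 2000 or more (1724 pairs).

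The cultures were checked against their labels before the effectors were read. Bmi1 signal went from 9933 in the wild-type line to 2146 in the null line at its brightest probe set, 4.63-fold lower, but from 931 to 831 at the other. The Y-linked genes Eif2s3y, Uty and Kdm5d read 712 to 1683 in wild-type and 15.3 to 26.5 in null cells, although both lines carry the label male. Of 10 fibroblast markers, 9 had a probe set of their own and all 9 were measured, with summed signals of 93673 and 122912. Among these, Col3a1 (4617 to 20209) and Col1a1 (6859.7 to 14841) were at least 2-fold higher in the null line, and Thy1 (375 to 50.7, under the floor) was at least 3.75-fold lower. Of 15 epithelial and desmosomal markers 12 were below the floor on both arrays. For beta-actin the 3' to 5' signal ratio was 1.20 on the wild-type and 1.15 on the null array.

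The effectors did not differ as a block. Of the 17 probe sets, 16 were measured, and the remaining one, of Sesn1, lay under the floor on each array. At least 2-fold lower signal in null cells was found for 4 of the 16 (25%), where 5.1% of all 20620 measured probe sets were that much lower. At least 2-fold higher signal was found for 1 of the 16 (6.25%), against 5.06% of all measured probe sets. The other 11 lay within 2-fold. Ratios below 0 and above 0 were equally frequent, with 8 of each, and the median of 0.03 was close to that of all measured probe sets (−0.01). By genes, at the brightest probe set of each, 3 of 10 were at least 2-fold lower and 1 higher, against 5.18% and 5.79% of 11794 measured genes. The median over genes was −0.50, opposite in sign to the median over probe sets, because genes on the higher side held more probe sets. In a bulk sample, fewer cells of a kind and less RNA per cell cannot be told apart.

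**Figure D1:**
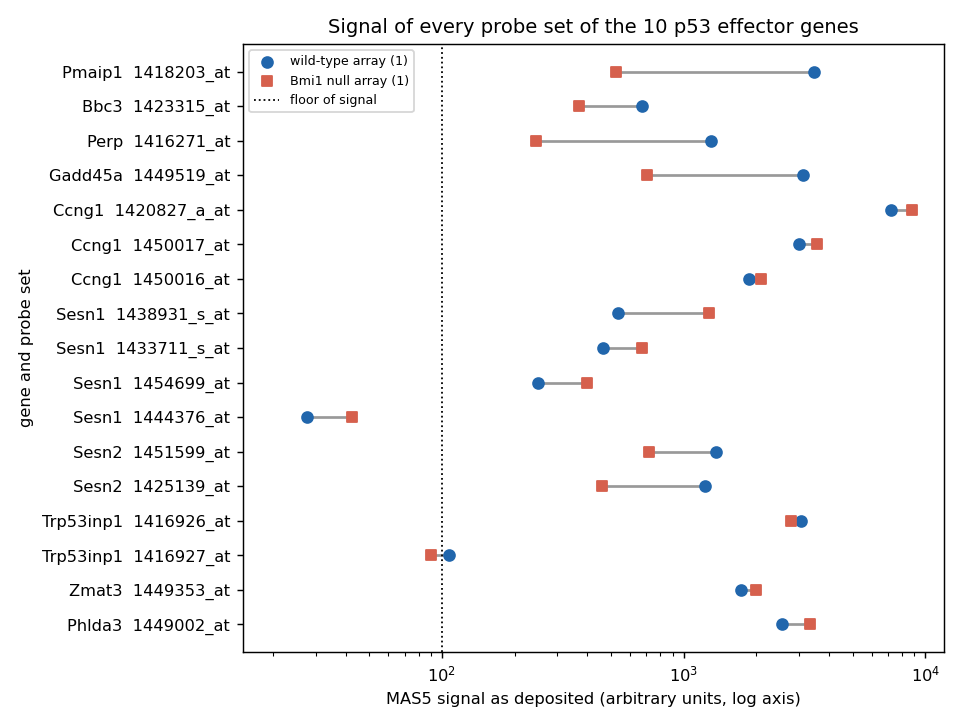
MAS5 signal (x axis, log scale, arbitrary units) of each of the 17 probe sets of the 10 genes (y axis), with circles for the wild-type array, squares for the Bmi1 null array and a dotted line at the floor of 100. The squares of Pmaip1, Perp and Gadd45a lie far to the left of their circles, those of Bbc3 and Sesn2 lie to the left by less, and those of Ccng1, Sesn1, Zmat3 and Phlda3 lie to the right.

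Of the BH3-only effectors of apoptosis, 1 of 2 passed 2-fold, on the lower side. Pmaip1 (Noxa), a BH3-only protein that neutralises the survival factor Mcl1, read 3471 in the wild-type and 526 in the null line, 6.60-fold lower. Its log2 ratio of −2.72 was the lowest of the 10 genes, and 97 of the 20620 measured probe sets (0.470%) had a lower one. Bbc3 (Puma), a BH3-only protein that binds all the main survival proteins of the BCL2 family, read 675 and 371, 1.82-fold lower. Its log2 ratio was −0.86, which exceeds the probe set SD of 0.29 but lies within 2-fold, and 6.73% of measured probe sets had a lower one. Each gene rested on 1 probe set.

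Perp, a membrane protein of the PMP22 family that takes part in p53-dependent apoptosis and is also a part of desmosomes in epithelia, read 1295 in the wild-type and 244 in the null line. This was a 5.31-fold lower signal (log2 ratio −2.41) at its only probe set, with 0.640% of measured probe sets lower still. Since Perp is abundant in epithelia, the epithelial and desmosomal markers were set beside it. Only 3 of the 15 were measured, and none of the 3 was lower in null cells. Epcam read 149 and 834 at a probe set with the suffix _x_at and lay under the floor on each array at its other probe set. Jup, which encodes plakoglobin, read 380 and 678, and Krt5 read 149 and 155. Cdh1, Krt8, Krt18, Krt19, Krt14 and Dsp were below the floor on both arrays. Over the whole list the signals summed to 1001 in the wild-type and 2097 in the null line, a sum that includes the 12 genes under the floor and in which the single Epcam probe set makes up most of the difference. The part of epithelial cells in the Perp value was not tested.

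Genes of growth arrest and repair did not share a direction. Gadd45a, a stress-induced protein that binds PCNA and the kinases Cdk1 and MTK1, read 3112 in the wild-type and 705 in the null line. It was 4.42-fold lower (log2 ratio −2.14) at its only probe set, with 0.951% of measured probe sets lower still. Ccng1, a cyclin that directs the phosphatase PP2A to Mdm2, was by contrast slightly higher in null cells at each of 3 probe sets. It read 7189.9 and 8849 at the brightest (1.23-fold higher), 3012 and 3547 at the second (1.18-fold) and 1868 and 2098 at the dimmest (1.12-fold). The Ccng1 log2 ratios of 0.30, 0.24 and 0.17 differed by 0.13 at most, and the last was smaller than the probe set SD of 0.20. All 3 were designed on the same source sequence, so they are repeated readings of 1 transcript rather than independent ones.

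The sestrins, which restrain mTORC1 when amino acids are scarce or DNA is damaged, lay on opposite sides. Sesn2 read 1359 in the wild-type and 718 in the null line at its brightest probe set (1.89-fold lower) and 1229 and 461 at the other (2.66-fold lower). Its log2 ratios were −0.92 and −1.41, so that 1 of the 2 probe sets passed 2-fold, and both were designed on the same source sequence. Sesn1 read 535 and 1270.1 at its brightest probe set, 2.37-fold higher in null cells. At its other measured probe sets Sesn1 read 463 and 675 (1.46-fold higher) and 249 and 399 (1.60-fold higher). The fourth Sesn1 probe set read 27.8 and 42.4, below the floor on both arrays, and has no ratio. All measured Sesn1 probe sets were on the higher side, but they differed by 0.70 in log2 ratio. The one that passed 2-fold and the one 1.46-fold higher carry the suffix _s_at, which marks probes shared between transcripts. The latter was designed on the same source sequence as the one 1.60-fold higher. Without probe sets of the suffixes _s_at, _x_at and _a_at, 0 of the member probe sets were at least 2-fold higher.

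Genes that feed back on p53 or on AKT differed little. Trp53inp1, a nuclear protein that promotes phosphorylation of p53 and takes part in autophagy, read 3056 and 2776 at its brightest probe set, 1.10-fold lower in null cells. Its other probe set read 107 and 89.9, at least 1.07-fold lower against the floor. Zmat3 (Wig1), a zinc finger protein that binds RNA, read 1732 and 1999, 1.15-fold higher. Phlda3, a pleckstrin homology protein that keeps AKT from the membrane, read 2562 and 3342, 1.30-fold higher. The log2 ratios of Trp53inp1 at its brightest probe set (−0.14) and Zmat3 (0.21) were smaller than the probe set SD of their signal class, 0.20 and 0.29, and that of Phlda3 (0.38) was larger than its SD of 0.20. With a threshold of 1.5-fold, 6 member probe sets were lower, the additional ones being Bbc3 and the brightest of Sesn2, and 2 were higher, where 12.8% and 11.6% of all measured probe sets passed.

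**Figure D2:**
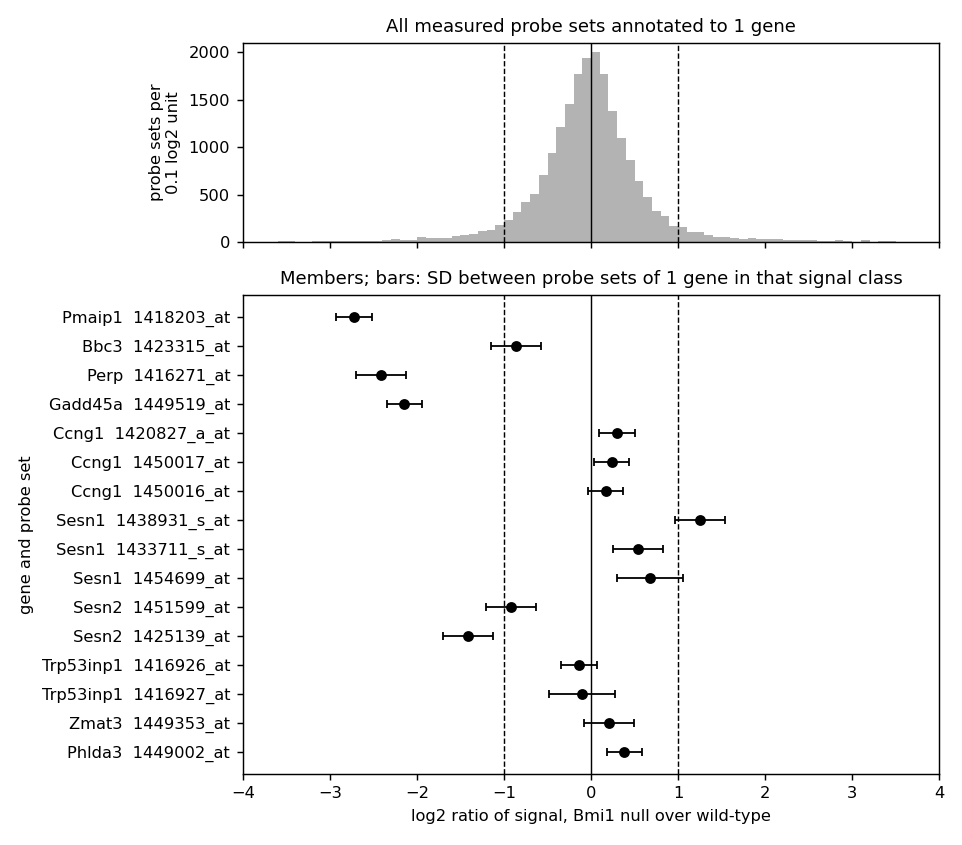
Log2 ratio of signal, Bmi1 null over wild-type (x axis), with dashed lines at 2-fold. The upper panel counts all 20620 measured probe sets in bins of 0.1, and the lower panel shows the 16 measured member probe sets with bars of 1 SD between probe sets of the same gene in that signal class. Pmaip1, Perp and Gadd45a lie in the left tail below −2, while Ccng1, Trp53inp1, Zmat3 and Phlda3 lie within the bulk of all probe sets.

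The sequence before the start of transcription was inspected for members whose ratios went apart. RefSeq windows of 300 bases on build GRCm38.p6, from 250 before to 50 after each annotated start, were at hand for 6 of the 10 genes, namely Bbc3, Gadd45a, Ccng1, Sesn1, Sesn2 and Phlda3, in 9 windows. Exact matches to the 10-base consensus half-site of p53, which reads the same on both strands, were found in 3 of the 9 windows and 3 of the 6 genes, where 8.36% of all 32851 windows and 9.55% of 27025 genes held one. The windows with a match are printed because their genes differed in direction. Each is given 5′ to 3′ on the strand of the gene, with the half-site in capitals. The first is Ccng1 at chr11:40755237-40755536 (minus strand), the second Gadd45a at chr6:67037358-67037657 (minus strand) and the last a Sesn1 start at chr10:41887189-41887488 (plus strand).
Ccng1: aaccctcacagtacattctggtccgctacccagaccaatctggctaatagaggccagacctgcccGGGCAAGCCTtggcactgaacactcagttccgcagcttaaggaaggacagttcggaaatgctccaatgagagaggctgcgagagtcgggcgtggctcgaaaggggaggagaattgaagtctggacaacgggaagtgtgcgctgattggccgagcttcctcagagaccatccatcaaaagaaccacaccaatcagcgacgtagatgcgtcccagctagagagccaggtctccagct
Gadd45a: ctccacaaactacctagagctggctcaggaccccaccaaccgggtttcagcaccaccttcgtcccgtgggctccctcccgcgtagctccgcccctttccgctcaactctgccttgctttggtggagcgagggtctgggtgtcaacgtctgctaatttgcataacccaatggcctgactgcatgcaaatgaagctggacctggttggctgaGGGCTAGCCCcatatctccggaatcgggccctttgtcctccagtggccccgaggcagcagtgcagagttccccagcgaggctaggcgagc
Sesn1: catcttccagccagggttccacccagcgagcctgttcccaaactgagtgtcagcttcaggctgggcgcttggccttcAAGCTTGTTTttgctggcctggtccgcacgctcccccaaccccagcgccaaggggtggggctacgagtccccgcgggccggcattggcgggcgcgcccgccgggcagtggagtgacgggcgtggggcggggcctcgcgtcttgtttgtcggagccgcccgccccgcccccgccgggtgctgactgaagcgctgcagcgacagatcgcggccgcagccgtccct

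The half-site GGGCAAGCCT of Ccng1 began 185 bases before the start, GGGCTAGCCC of Gadd45a 40 bases before it and AAGCTTGTTT of Sesn1 173 bases before it. Of these genes Gadd45a was 4.42-fold lower in null cells, while Ccng1 and Sesn1 were on the higher side. The other Sesn1 window and the windows of Sesn2, Bbc3 and Phlda3 held no exact match, and their genes also lay on both sides of 0. A match is a run of letters, not a measured site, and p53 sites outside these windows were not searched.

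Relatives of the effectors were compared with them to see whether families differed together. Of 12 relatives, 10 were measured, and at the brightest probe set of each 4 were higher in the null line by at least 2-fold and 0 lower by as much (median log2 ratio 0.43), where 5.79% and 5.18% of all measured genes were higher and lower. Gadd45g, which shares its stress-kinase partner with Gadd45a, read 163 and 1085, 6.65-fold higher in null cells. Gadd45b read 1533 and 2234 at its brightest probe set (1.46-fold higher) and was 2.28-fold and 1.51-fold higher at its others. Gadd45a, at −2.14, was thus the member of its family on the lower side, and the log2 ratio was higher by 4.88 for Gadd45g and by 2.69 for Gadd45b.

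Sesn3, a sestrin known as a FOXO target, read 206 and 559, 2.71-fold higher in null cells, and its second probe set, below the floor in wild-type cells, was at least 1.64-fold higher. Sesn1 and Sesn3 thus both exceeded Sesn2, by differences in log2 ratio of 2.17 and 2.36 at the brightest probe sets. Pmp22, the myelin protein after which the family of Perp is named, read 2112 and 4678, 2.21-fold higher, where Perp was 5.31-fold lower. Ccng2 read 2024 and 1655 (1.22-fold lower) and 763 and 475 (1.61-fold lower), the opposite side to Ccng1. Trp53inp2 was 1.66-fold lower (1921 to 1159) and Phlda1 1.68-fold lower (3586 to 2133), whereas Phlda2 was below the floor on both arrays. Among zinc finger relatives of Zmat3, Zmat1 was at least 2.78-fold higher (85.6 to 278), Zmat5 1.24-fold higher and Zmat2 1.05-fold higher, and Zmat4 was below the floor on both arrays.

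**Figure D3:**
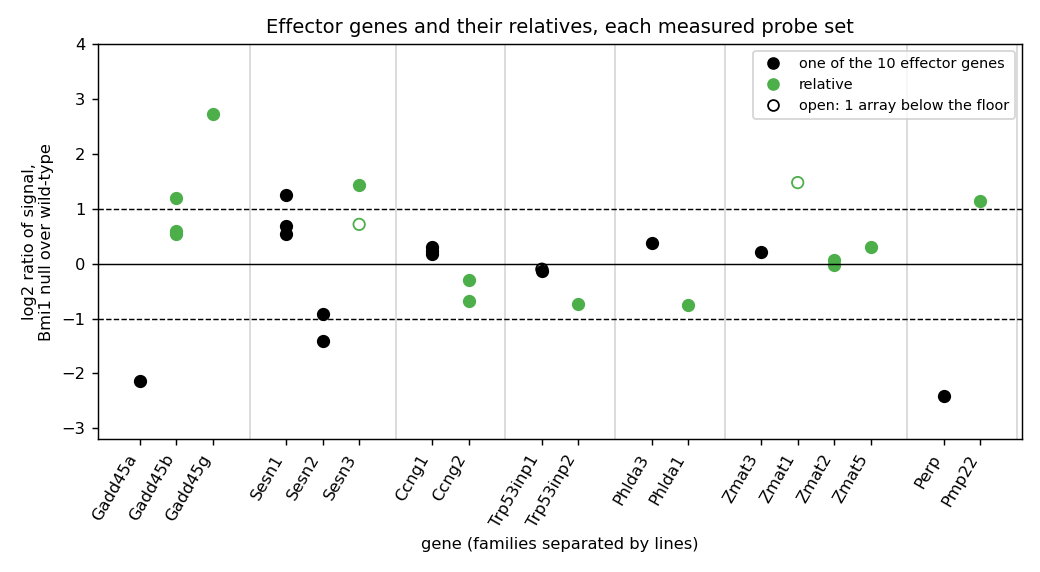
Log2 ratio of signal, Bmi1 null over wild-type (y axis), at each measured probe set of the effector genes (black) and their relatives (green), grouped by family, with dashed lines at 2-fold and open points where 1 array was below the floor. Gadd45a at −2.14 lies below Gadd45b and Gadd45g, both Sesn2 points lie below those of Sesn1 and Sesn3, and Perp lies below Pmp22.

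The regulators of p53 were set beside its effectors. No probe set annotated to Trp53 alone was analysed here, so its transcript has no value. Cdkn2a read 331 and 1415, 4.27-fold higher in null cells, at a probe set that does not separate p16 from p19Arf. Mdm2, the ligase that p19Arf restrains and that p53 induces, read 3258 and 1658 at its brightest probe set (1.96-fold lower) and 1737 and 639 at the second (2.72-fold lower). At its dimmest probe set it stayed under the floor on each array. Mdm4 read 639 and 619, 1.03-fold lower. Among the 14 measured genes of the core and its regulators, 1 (Cdkn2a) passed 2-fold on the higher side and 0 on the lower side at their brightest probe set, with a median log2 ratio of −0.07. With 1 of 14 (7.14%) higher and 0 lower, this list was near the 5.79% and 5.18% of all measured genes.

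Other genes known as p53 targets also lay on both sides. Of 41 listed, 36 were measured, and 5 of these (13.9%) were at least 2-fold lower in null cells and 1 (2.78%) higher, against 5.18% and 5.79% of all measured genes. Their median log2 ratio was −0.17, and 25 of the 36 were below 0. The lists overlap, since Mdm2 and Ppm1d also stand among the core and its regulators and Phlda1 among the relatives. Plk3, a polo-like kinase of the stress response, read 862 and 233, 3.69-fold lower. Dram1, a lysosomal protein that links p53 to autophagy, read 2208 and 654, 3.37-fold lower. The death receptor relatives Tnfrsf23 and Eda2r read 508 and 175 (2.91-fold lower) and 1489 and 670 (2.22-fold lower). The remaining pair, named after their values were seen, were Trp53i11 (251 and 101, 2.48-fold lower) and Rprm, a G2 arrest gene that was below the floor in the wild-type line, so that its signal in the null line was higher by at least 4.36-fold. Cdkn1a, the p21 inhibitor of cyclin-dependent kinases, read 5164 and 3579 (1.44-fold lower) and 2531 and 1597 (1.59-fold lower).

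**Figure D4:**
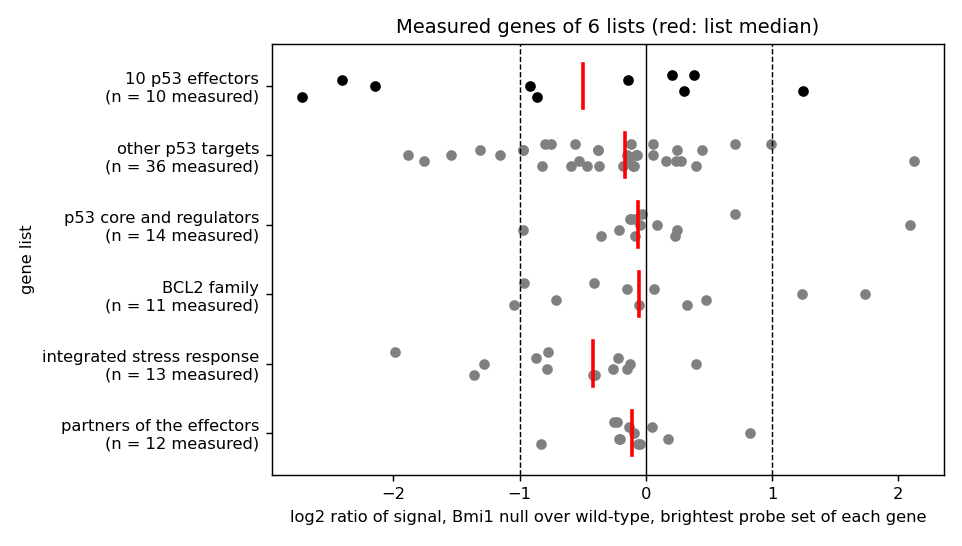
Log2 ratio of signal, Bmi1 null over wild-type (x axis), of each measured gene at its brightest probe set in 6 lists (y axis), with red bars at the list medians and dashed lines at 2-fold. The 10 effectors spread from −2.72 to 1.25 around a median of −0.50, and 25 of the 36 other p53 targets lie below 0. Mdm2 and Ppm1d appear both among the other targets and in the core.

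Because several effectors also answer to regulators other than p53, 2 neighbouring programmes were described. Sesn2 and Pmaip1 are known targets of Atf4, the transcription factor of the integrated stress response. Of 13 genes of that response, all were measured, 3 (23.1%) passed 2-fold on the lower side and 0 on the higher side, and 12 lay below 0, with a median log2 ratio of −0.42. Of all measured genes 5.18% were that much lower and 5.79% higher, and their median was 0.0066. The cystathionine lyase gene Cth read 4869.5 and 1231 (3.95-fold lower), the cystine transporter gene Slc7a11 523 and 204 (2.57-fold lower) and the phosphatase subunit gene Ppp1r15a 2498 and 1029 (2.43-fold lower). Atf4 itself read 10189 and 9322, 1.09-fold lower. The part of this response in the values of Sesn2 and Pmaip1 was not tested. The BCL2 family, to which the partners of Pmaip1 and Bbc3 belong, was read at the brightest probe set of each gene. Bid was 2.06-fold lower (1826 to 885), Bmf 3.32-fold higher (163 to 543) and Bcl2l11 (Bim) 1.95-fold lower (883 to 453). At its other probe sets Bid was 2.23-fold and 1.09-fold lower. The Bmf probe set carries the suffix _s_at, and the other Bmf probe sets lay under the floor on each array. Bcl2, named after its value was seen, was the other of 2 genes at least 2-fold higher (201 to 474) among 11 measured, and Bid was the 1 gene at least 2-fold lower, where 5.79% and 5.18% of all measured genes passed on those sides. A second Bcl2 probe set, under the floor in wild-type cells, was at least 1.09-fold higher. The remaining Bcl2 probe sets were below the floor on both arrays.

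The study also listed genes by a chromatin mark, which the choice of effectors did not use. Pmaip1 and Perp, 2 of the 10 effectors, were among the genes that the study listed for ubiquitylated H2A, the histone mark PRC1 places, peaking at the promoter when Bmi1 is present, and the other 8 were not. Of all measured genes, 2.76% were on that list under the same symbol. The 10 effectors were also looked up by synonym, so that share may be low beside theirs. Of these 325 genes, 6.46% were at least 2-fold lower in null cells and 5.54% at least 2-fold higher, close to the 5.18% and 5.79% of all genes. The study instead averaged fold changes over its own set of listed genes and reported higher expression in null cells on average. Genes and measure thus differ from the counts given here. The list was drawn from chromatin of the same pair of cell lines and is not independent of them.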

How the data were processed

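Gene expression was measured in 1 Bmi1 wild-type and 1 Bmi1 null MEF line on Affymetrix Mouse Genome 430 2.0 arrays. The authors labelled total RNA as biotinylated cRNA from an oligo(dT) primer and deposited 1 linear MAS5 intensity per probe set. Each array had been scaled to the same mean (500 after removal of 2% at each end), which would hide a change shared by most transcripts. Scaling settings are not given in the sources used here, and detection calls were not used.

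Of 45101 probe sets, 34958 had 1 gene symbol in the platform annotation and were kept, and the Entrez identifiers of all 17 member probe sets gave the same symbol in RefSeq (GRCm38.p6). Signals were floored at 0.2 times the trimmed mean, that is 100. A gene was represented by its brightest measured probe set. Ratios were computed with Python 3.11.15, numpy 2.4.6 and pandas 2.3.3, and the computation was tested on simulated data. With 1 array per group no p-value is given, and the number of arrays limits the precision.

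The members, and 10 lists of pathway genes and cell type markers, were chosen with earlier results of these data known. The text names all members, Bmi1, Mdm2, Mdm4, Cdkn1a, Cdkn2a and all relatives. Of other pathway lists it names genes at least 2-fold apart whose brighter signal reached the trimmed mean. Atf4 and Bcl2l11, within 2-fold at their brightest probe sets, were named outside that rule. Binding partners and marker genes have a known role, but the partners named include the furthest lower and the furthest higher at the brightest probe set. A few others are marked as named after their values were seen. Marker lists were read as whole lists, with single markers as examples. Of those for blood and endothelial cells, 3 of 6 and 3 of 5 were measured, with summed signals of 1522 and 868 and of 554 and 553 in wild-type and null cells, and Cd14 was 2.24-fold lower (1012 to 453).

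Alternatives were other floors, no floor, a pseudocount, quantile normalisation, centring on the median, leaving out probe sets with shared-probe suffixes, the mean of probe sets and a threshold of 1.5-fold.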

Additional observations from a re-analysis of the deposited data

How the results depend on the processing

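No paired analysis was possible because each group held 1 array. Of 108 member probe set ratios recomputed under an alternative, 58 were identical to the value given, since a floor or a suffix filter leaves the ratio of a bright probe set as it is, and they say nothing about stability. Of the 50 that could move and did, 48 stayed within 1 probe set SD, and none changed sign where it had passed 2-fold. The exceptions were Pmaip1 (−2.51) and Perp (−2.02) with a pseudocount, which shrinks ratios by construction. The 50 include the centred ratios, from each of which the median of all measured probe sets (−0.013) was subtracted. Such a shift could not reach 1 probe set SD, so the centred ratios say nothing about stability either. Over all alternatives 4 to 6 member probe sets were at least as far lower as the threshold. The number higher was 0 without the shared-probe suffixes and 2 at 1.5-fold. The median over member probe sets ranged from −0.14 to 0.17 and that over member genes from −0.50 to −0.43. No scaling alternative moved the median of all measured probe sets by 0.1.

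Counts in the other lists were small. Those that moved by over 1.5 times were as follows. In the BCL2 family, 2 genes were lower with a floor of 0.1 times the trimmed mean and without a floor, 0 were lower and 1 higher with a pseudocount and with the mean of probe sets, and 1 was higher without the suffixes. Leaving out the suffixes removes Bmf, whose only measured probe set ends in _s_at. Of other p53 targets, 2 were higher without a floor and after centring. The gene added by centring was Thbs1, at a log2 ratio of 0.99 before it. Of core genes, 0 were higher without the suffixes and 1 was lower with the mean of probe sets. The only Cdkn2a probe set ends in _a_at, so leaving out the suffixes removes that gene and does not test its ratio. The lower core gene was Mdm2, with log2 ratios of −0.97 and −1.44 at its measured probe sets. By less, 4 to 6 other targets were lower and 3 to 5 relatives higher over the settings at 2-fold. At 1.5-fold, 11 other targets were lower and 3 higher, 1 core gene was lower and 2 higher, 2 relatives were lower, 3 BCL2 family genes were lower, 6 stress response genes were lower, and of the binding partners 1 was lower and 1 higher. These changes at 1.5-fold follow from the wider threshold. For the other changes where no reason is given, the cause was not tested.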

Other observations

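Genes for the proteins through which the effectors act were also described. Of 14 such partner genes 12 were measured, and none differed 2-fold at its brightest probe set (median log2 ratio −0.11). Tsc2, a brake on mTORC1 downstream of the sestrins, read 1130.3 in the wild-type and 636 in the null line, 1.78-fold lower. Cdk1, the mitotic kinase bound by Gadd45a, read 1123 and 1985, 1.77-fold higher. Pcna, the replication clamp that Gadd45a also binds, read 5236 and 5013. Mcl1, the survival protein that Pmaip1 neutralises, was listed with the BCL2 family and not among these 14 genes, and read 7021 and 6748. These genes have known binding to the effectors or a place in the same pathway. Among the 12 measured partners, Tsc2 was also the 1 at least 1.5-fold lower and Cdk1 the 1 at least 1.5-fold higher. Several partners nearer to no change are not named.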
